A study of Mus musculus with 8 samples.

Results

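The 7 genes described here encode subunits of the GABA-A receptor: the alpha subunit genes Gabra2, Gabra3, Gabra4 and Gabra5, the beta subunit genes Gabrb1 and Gabrb2, and the delta subunit gene Gabrd. They were chosen by gene symbol, from a list of names, out of 19505 genes named for the 22206 probe sets of an Affymetrix array. Each had 1 probe set. The list was made with earlier results of these data known, so counts of called subunits describe these 7 genes only and carry no test. The mice were males aged 12 weeks that received clothianidin (CLO), a neonicotinoid insecticide that acts on nicotinic acetylcholine receptors, at 50 mg/kg/day for 2 weeks, or the vehicle, which contained 1% DMSO. The 4 groups were exposed hippocampus (Hip CLO50), control hippocampus (Hip Ctrl), exposed cerebral cortex (Ctx CLO50) and control cerebral cortex (Ctx Ctrl), with 2 arrays each. Arrays carry the numbers 3 and 6 in exposed mice and 1 and 6 in control mice. The sources used here name no strain and no pooling of animals, and nothing says that arrays of a group came from separate mice. The p-values below therefore measure only the spread between these arrays, which may be technical.

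GABA-A receptors are chloride channels that open when GABA, the main inhibitory transmitter of the forebrain, binds at the interface of an alpha and a beta subunit. The subunits present decide where the receptor sits and which drugs act on it. Receptors with a gamma subunit cluster at synapses on the scaffold protein gephyrin, while receptors with the delta or the alpha5 subunit lie largely outside synapses and carry tonic inhibition. The alpha4 and delta subunits pair in dentate granule cells and thalamus, alpha5 is abundant in hippocampal pyramidal neurons, and alpha3 is found in deep cortical layers.

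Promoter windows are shown for 4 of the genes. Gabrb1 and Gabra4 are shown because their annotated starts lie next to each other, Gabra2 because both of its exposed arrays lay below both control arrays in each tissue, and Gabrb2 because it had the highest exposure difference of the 7 in hippocampus. The windows are from RefSeq on build GRCm38.p6 and run 5′ to 3′ on the gene's own strand, with 250 bases before the annotated start and 50 from it. They lie at chr5:71657671-71657970 (the first of the annotated Gabrb1 starts), chr5:71658259-71658558 (Gabra4), chr5:71095800-71096099 (Gabra2) and chr11:42420190-42420489 (the first Gabrb2 start). Capitals mark the GC box GGGCGG and the TATA box TATAAA on either strand.
Gabrb1, + strand: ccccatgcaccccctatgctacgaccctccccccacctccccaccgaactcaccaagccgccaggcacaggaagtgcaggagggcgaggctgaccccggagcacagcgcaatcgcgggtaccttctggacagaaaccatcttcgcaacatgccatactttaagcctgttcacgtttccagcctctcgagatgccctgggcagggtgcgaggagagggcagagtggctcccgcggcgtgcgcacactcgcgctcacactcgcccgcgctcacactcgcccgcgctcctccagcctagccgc
Gabra4, - strand: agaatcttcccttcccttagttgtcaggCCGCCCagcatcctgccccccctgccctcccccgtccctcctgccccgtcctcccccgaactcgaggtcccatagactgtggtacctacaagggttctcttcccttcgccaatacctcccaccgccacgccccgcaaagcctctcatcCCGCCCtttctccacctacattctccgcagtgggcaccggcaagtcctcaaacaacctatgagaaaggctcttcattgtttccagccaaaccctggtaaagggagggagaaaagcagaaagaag
Gabra2, - strand: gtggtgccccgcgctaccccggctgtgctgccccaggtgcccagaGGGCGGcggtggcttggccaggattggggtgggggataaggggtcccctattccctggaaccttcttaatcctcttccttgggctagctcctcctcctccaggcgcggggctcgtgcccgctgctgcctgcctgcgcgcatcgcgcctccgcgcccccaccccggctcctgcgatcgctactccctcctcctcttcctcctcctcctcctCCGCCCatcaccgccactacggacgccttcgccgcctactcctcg
Gabrb2, + strand: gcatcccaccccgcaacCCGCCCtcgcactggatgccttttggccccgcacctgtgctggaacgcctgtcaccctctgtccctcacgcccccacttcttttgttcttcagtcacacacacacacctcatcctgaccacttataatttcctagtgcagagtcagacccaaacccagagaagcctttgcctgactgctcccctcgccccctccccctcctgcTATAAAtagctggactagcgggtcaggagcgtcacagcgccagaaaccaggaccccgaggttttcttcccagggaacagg

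The start of Gabra4 lay 387 bases from the first start of Gabrb1, on the opposite strand, and each transcript runs across the other's start. A second annotated start of Gabrb1 lay 42011 bases further on. The GC box was present in 35.7% of 32851 RefSeq windows of the same length. It stood 222 and 74 bases before the Gabra4 start, and the Gabrb1 window held none. It also stood 205 bases before the Gabra2 start, with another copy just past that start, and 233 bases before the first Gabrb2 start. The TATA box was present in 13.6% of all windows, and in the Gabrb2 window it began 30 bases before the start. The cyclic AMP element TGACGTCA (1.79% of all windows) and the EGR site GCGTGGGCG (0.612%), searched on both strands, were in 0 of the 10 windows of the 6 genes with an entry. No marked motifs overlap. These are letters found in a window and show no binding. Probe positions were not among the sources used here, so signal cannot be assigned to 1 start of a gene.

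Values are log2 signals that the authors had normalized, and a difference of 1 is a 2-fold difference in signal. Levels are compared within a gene only, because probe sets differ in how strongly they bind. Array medians lay between 5.21 and 5.25 in cortex and between 5.37 and 5.4 in hippocampus. The main fit did not centre the arrays on them, so this offset is part of every tissue difference below. Of 22206 probe sets, 14804 passed a filter that left out probe sets with a mean below 3.937, and all 7 subunits passed. The tissue labels were set against marker genes, most of which followed them. All 6 tested CA pyramidal neuron markers rose in hippocampus against cortex in both arms, as did 4 of 7 dentate granule neuron markers, while Pdzd2 of that list fell in both. Of 10 cortical projection neuron markers, 5 fell in exposed mice and 8 in control mice, and Bcl11b rose in both (3.64 in exposed and 3.12 in control mice). Control arrays Hip Ctrl 1 and Ctx Ctrl 6 stood apart in Ttr, the transthyretin gene of the choroid plexus (19.51 against 7.76 in Hip Ctrl 6, and 15.41 against 4.17 in Ctx Ctrl 1). Where leaving out both arrays ended a call on a subunit, its value without them is given. In tissue samples, fewer cells of a type and less RNA per cell cannot be told apart.

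The first comparison asked how the subunits differ between hippocampus and cortex within each arm. Gabra5, Gabra2 and Gabrb1 rose in hippocampus, and Gabra3 and Gabrd fell, in exposed and in control mice alike. Gabrb2 fell in control mice, and in exposed mice its difference of -0.455 did not pass. Gabra4 had no detected tissue difference in either arm. Counted by limma's adjusted p under 0.05, 5 of 7 subunits passed in exposed mice (3 higher, 2 lower), where 14.5% of all 14804 probe sets passed (9.25% higher and 5.22% lower). In control mice 6 of 7 passed (3 higher, 3 lower), where 17.7% passed (10.1% higher and 7.63% lower). At an unadjusted p under 0.05 the counts were the same, beside 29.3% of probe sets in exposed mice and 31.4% in control mice. The arrays of the tissues did not overlap for 7 of 7 subunits in exposed mice (4 higher, 3 lower), beside 57% of probe sets (35% higher and 22% lower). In control mice this held for 6 of 7 (3 higher, 3 lower), beside 59.2% (34.5% higher and 24.7% lower). In exposed mice Gabra4 was parted narrowly, with 11.56 on Hip CLO50 6 and 11.48 on Ctx CLO50 6. The medians of these arrays, 5.37 and 5.22, lay further apart than that. The median log2 difference of the 7 was 0.335 in exposed mice and -0.04 in control mice, beside 0.125 and 0.1 over all probe sets, since rises and falls of single subunits lay on both sides.

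**Figure D1:**
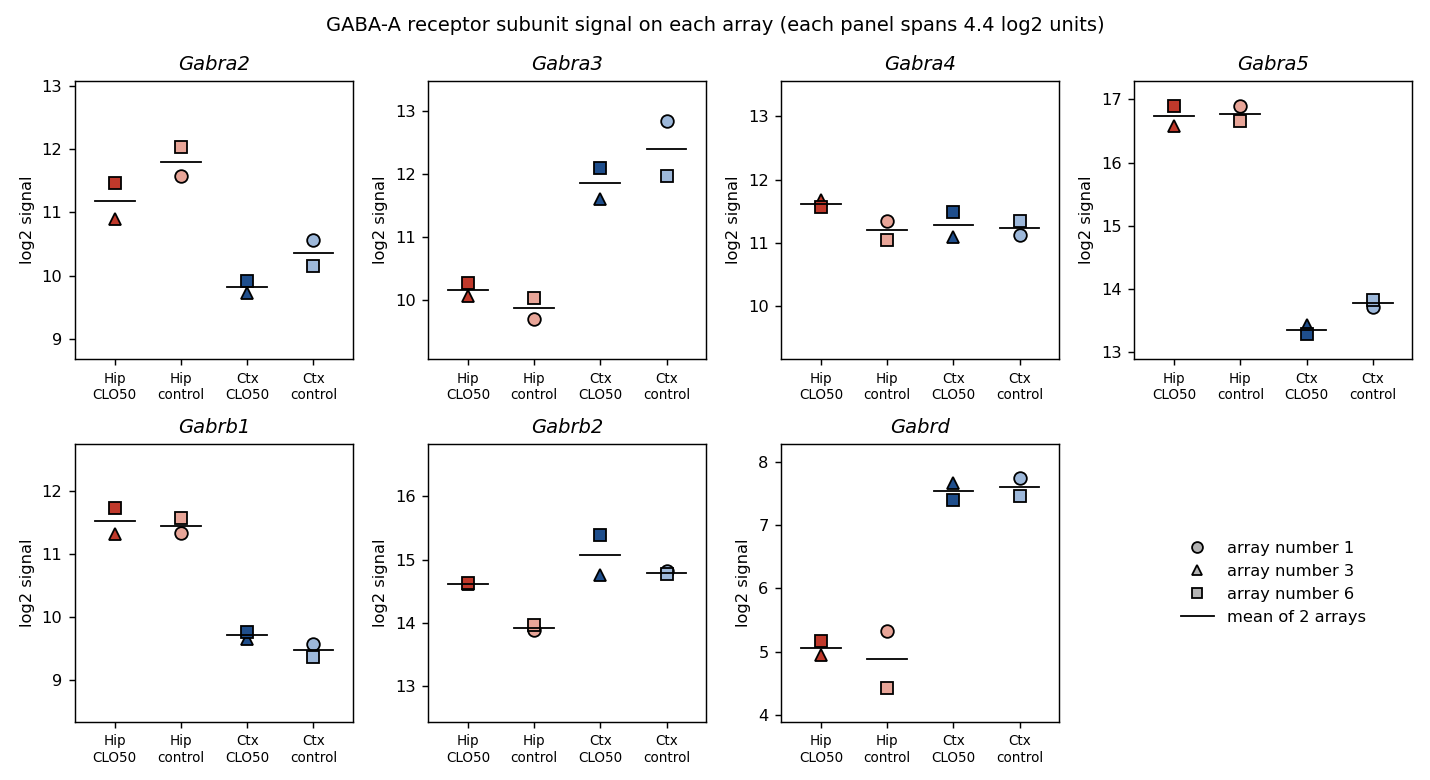
Log2 signal (vertical axes, each panel spanning 4.4 units) of each subunit gene on every array, by group from left to right: exposed and control hippocampus, exposed and control cortex. Symbols give the array number and lines the mean of 2 arrays. The Gabra5 arrays lie at 16.58 or above in hippocampus and at 13.83 or below in cortex.

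Gabra5, which encodes the alpha5 subunit of extrasynaptic receptors, had the largest tissue difference of the 7. It measured 16.58 and 16.90 in exposed hippocampus, and 16.90 and 16.65 in control hippocampus. In cortex it measured 13.43 and 13.28 in exposed mice, and 13.72 and 13.83 in control mice. Every hippocampus array lay above every cortex array. In exposed mice it was 10.4-fold higher in hippocampus than in cortex (log2 difference 3.39, SE 0.20, 95% interval 2.94 to 3.83, adjusted p = 1.62e-06, limma). In control mice it was 8-fold higher (3.00, SE 0.20, 2.55 to 3.45, adjusted p = 2.33e-06, limma). By p-value it ranked 13 of 14804 probe sets in exposed mice and 35 of 14804 in control mice.

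Gabra2 encodes the alpha2 subunit, found at synapses on the first stretch of the axon. It measured 10.90 and 11.46 in exposed hippocampus, and 11.57 and 12.04 in control hippocampus. The cortex arrays read 9.72 and 9.91 in exposed mice, and 10.57 and 10.16 in control mice. The 4 groups ran, from high to low, control hippocampus, exposed hippocampus, control cortex and exposed cortex, with no overlap between neighbours. The hippocampus was higher by 1.365 in exposed mice (SE 0.28, adjusted p = 0.00676, limma) and by 1.44 in control mice (SE 0.28, adjusted p = 0.004, limma). The call in exposed mice was lost without Ctx CLO50 3 (1.27, adjusted p = 0.0564) or Hip CLO50 6 (1.085, 0.0701), and that in control mice without Ctx Ctrl 6 (1.235, 0.0555).

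Gabrb1, a beta subunit gene, measured 11.31 and 11.72 in exposed hippocampus, and 11.33 and 11.57 in control hippocampus. In cortex it measured 9.66 and 9.76 in exposed mice, and 9.58 and 9.37 in control mice. The tissues did not overlap, and in hippocampus the arms did. The hippocampus was 3.49-fold higher in exposed mice (log2 difference 1.805, SE 0.25, adjusted p = 0.000491, limma) and 3.93-fold higher in control mice (1.975, SE 0.25, adjusted p = 0.000191, limma). Gabra4, whose start lies next to that of Gabrb1 in the windows above, differed by 0.335 in exposed mice (SE 0.24, 95% interval -0.19 to 0.86) and by -0.04 in control mice (SE 0.24, -0.57 to 0.49).

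Gabra3 and Gabrd were the subunits lower in hippocampus by the widest margin. Gabra3, for the alpha3 subunit, measured 10.06 and 10.28 in exposed hippocampus, and 9.71 and 10.03 in control hippocampus. Cortex values were 11.61 and 12.09 in exposed mice, and 12.83 and 11.96 in control mice. The cortex arrays overlapped between arms and all lay above the hippocampus arrays. Gabra3 differed by -1.68 in exposed mice (SE 0.31, adjusted p = 0.00346, limma) and by -2.525 in control mice (SE 0.31, adjusted p = 0.000161, limma). Gabrd, for the delta subunit, which gives receptors high sensitivity to GABA and to neurosteroids, measured 4.95 and 5.16 in exposed hippocampus, and 5.33 and 4.43 in control hippocampus. In cortex it measured 7.67 and 7.40 in exposed mice, and 7.75 and 7.47 in control mice. The arms overlapped in both tissues, while the tissues lay over 2 log2 units apart. Gabrd differed by -2.48 in exposed mice (SE 0.33, adjusted p = 0.000449, limma) and by -2.73 in control mice (SE 0.33, adjusted p = 0.000164, limma). Its lowest hippocampus value, 4.43, lay near the filter limit of 3.937, and the table gives no detection call.

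Gabrb2 encodes the beta2 subunit, a partner of alpha1 in the most common receptor of the adult brain. It measured 14.61 and 14.63 in exposed hippocampus, and 13.88 and 13.97 in control hippocampus. Cortical signals were 14.76 and 15.39 in exposed mice, and 14.82 and 14.77 in control mice. Control hippocampus stood below the other 3 groups, and every hippocampus array lay below every cortex array. Gabrb2 differed between the tissues by -0.455 in exposed mice (SE 0.23, 95% interval -0.95 to 0.04, adjusted p = 0.21, limma) and by -0.87 in control mice (SE 0.23, -1.37 to -0.37, adjusted p = 0.0211, limma). The call in control mice was lost without Hip Ctrl 1 (-0.825, adjusted p = 0.0711), Hip Ctrl 6 (-0.915, 0.0538), Ctx Ctrl 1 (-0.845, 0.123) or Ctx Ctrl 6 (-0.895, 0.102). It was also lost without both arrays high in Ttr (-0.85, 0.184) and without the mean-variance trend (-0.87, 0.0502).

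**Figure D2:**
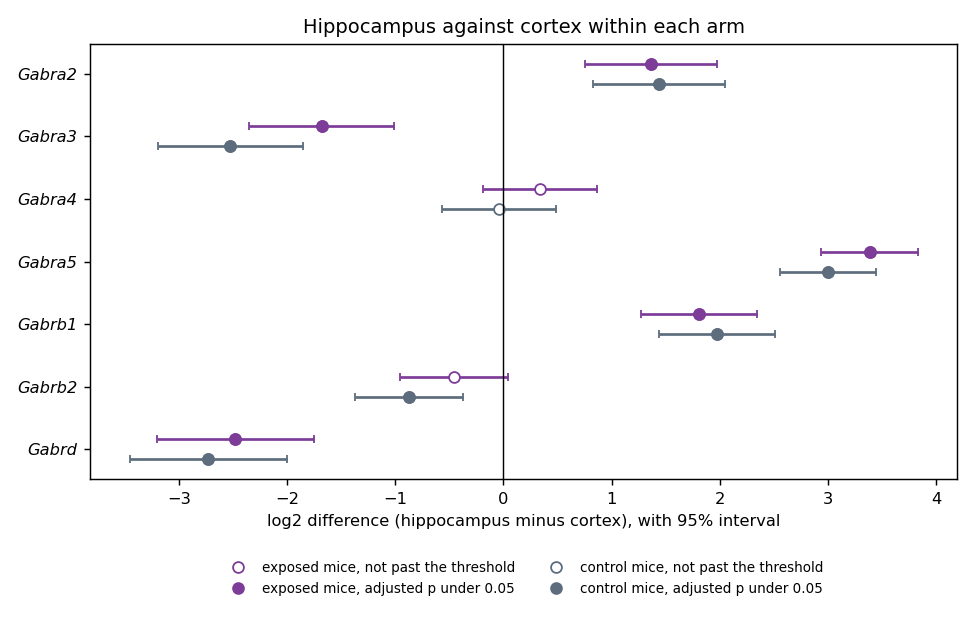
Log2 difference of hippocampus minus cortex (horizontal axis) for each subunit in exposed mice (upper point of each pair) and control mice (lower point), with 95% intervals from limma; filled points have adjusted p under 0.05. Gabra5, Gabra2 and Gabrb1 lie to the right of 0 and Gabra3 and Gabrd to the left in both arms.

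The second comparison asked whether exposure changed subunit transcripts within a tissue. No subunit passed in hippocampus or cortex. Limma called 0 of 7 in either tissue, beside 0.00675% of all probe sets (1 of 14804) in each. At an unadjusted p under 0.05 the counts were 2 of 7 in hippocampus (Gabrb2 and Gabra2), where 5.81% of probe sets had it, and 0 of 7 in cortex, where 6.18% had it. The median log2 difference of the 7 was 0.175 in hippocampus and -0.075 in cortex, beside 0.005 and -0.025 over all probe sets. The 95% intervals of all 7 lay between -1.24 and 1.19 in hippocampus and between -1.21 and 0.78 in cortex. In cortex those of Gabra2 (-1.16 to 0.06) and Gabra3 (-1.21 to 0.12) held both 0 and a 2-fold fall. In hippocampus those of Gabra2 (-1.24 to -0.01) and Gabrb2 (0.20 to 1.19) reached past 2-fold and left out 0, without adjustment over probe sets. With 2 arrays a group, 2-fold differences are thus not excluded for these subunits in the tissue named.

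In hippocampus the exposed and control arrays did not overlap for 4 of 7 subunits, 3 higher and 1 lower, beside 30.7% of all probe sets (16.7% higher and 14% lower). Gabrb2 was higher by 0.695 (SE 0.23, 95% interval 0.20 to 1.19, unadjusted p = 0.0103, adjusted p = 0.769, limma). Both exposed arrays, 14.61 and 14.63, lay above both control arrays, 13.88 and 13.97, and the spread within each arm was under 0.1. Gabra4, for the alpha4 subunit, measured 11.68 and 11.56 in exposed hippocampus, and 11.35 and 11.04 in control hippocampus (difference 0.425, SE 0.24, adjusted p = 0.901, limma). Gabra3 differed by 0.30 (SE 0.31, adjusted p = 0.962). Gabra2 was the 1 subunit lower without overlap (difference -0.625, SE 0.28, 95% interval -1.24 to -0.01, unadjusted p = 0.0456, adjusted p = 0.847). The other 3 subunits overlapped between arms and differed by -0.035 for Gabra5, 0.065 for Gabrb1 and 0.175 for Gabrd.

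Several marker lists were read on these hippocampal arrays. Those of 4 cell types are detailed here, and exposure called 0 of the 4 lists' genes. The array means overlapped between the arms for dentate granule and CA pyramidal neurons. Among lists not detailed here, all 5 ependyma markers were lower in exposed hippocampus (median -0.93). By contrast, 8 of 11 interneuron markers were higher and 3 lower (median 0.165). Of 6 markers of meninges and fibroblasts, 1 was higher and 5 lower (median -0.38). Of 5 endothelium markers, 4 were higher and 1 lower (median 0.355). Exposure called 0 genes of these lists. Of 10 tested markers of cortical projection neurons, 7 were higher in exposed hippocampus, and their mean log2 signal was 9.597 and 8.982 in exposed arrays, against 8.735 and 8.747 in control arrays. Markers of dentate granule neurons had means of 8.954 and 9.107 in exposed arrays, against 9.157 and 8.874 in control arrays, and 4 of 7 were higher. Those of CA pyramidal neurons had means of 10.568 and 10.777 in exposed arrays, against 10.732 and 10.8 in control arrays, and 2 of 6 were higher. Choroid plexus markers, 0 of 9 of which were higher, had means of 4.911 and 4.932 in exposed arrays, against 10.987 and 5.017 in control arrays. No list had a marker at 0, a value this scale does not reach. The part of these markers in the subunits' values was not tested. Without both arrays high in Ttr, Gabrb2 differed by 0.65 and Gabra2 by -0.86. With single arrays left out, Gabra2 in hippocampus ranged from -0.905 to -0.345, with -0.345 without Hip CLO50 3 and -0.39 without Hip Ctrl 6.

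In cortex the arrays did not overlap between arms for 3 of 7 subunits, 1 higher and 2 lower, beside 38.5% of all probe sets (17.1% higher and 21.4% lower). Gabra2 was lower (difference -0.55, SE 0.28, 95% interval -1.16 to 0.06, adjusted p = 0.808, limma), with 9.72 and 9.91 in exposed arrays, against 10.57 and 10.16 in control arrays. Without Ctx Ctrl 1 the Gabra2 difference was -0.345. Gabra5 was lower (difference -0.42, SE 0.20, 95% interval -0.87 to 0.03, adjusted p = 0.808, limma). Gabrb1 was higher by 0.235 (SE 0.25, adjusted p = 0.909). Gabra3 differed by -0.545 (SE 0.31, adjusted p = 0.813), and its value turned on control array 1, at 12.83 against 11.96 in control array 6. Without Ctx Ctrl 1 Gabra3 differed by -0.11, and without Ctx Ctrl 6 by -0.98. Gabrb2, Gabra4 and Gabrd overlapped and differed by 0.28, 0.05 and -0.075. Cortical projection neuron markers had means of 10.579 and 10.774 in exposed cortex, against 11.11 and 10.845 in control cortex, with 7 of 10 lower, and their part in these values was not tested.

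**Figure D3:**
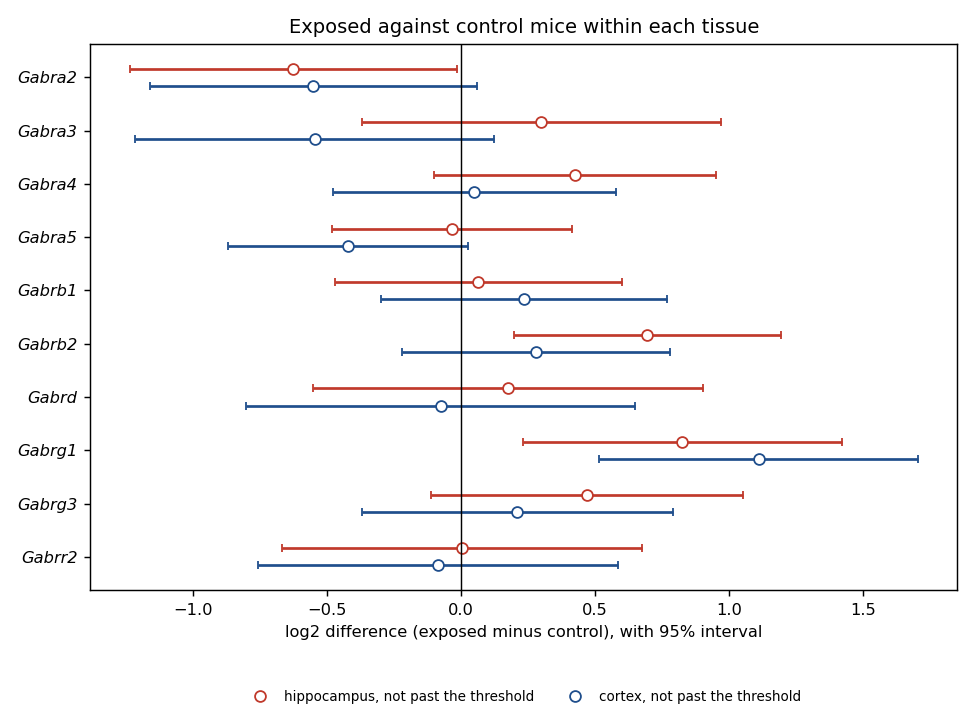
Log2 difference of exposed minus control mice (horizontal axis) for the 7 subunits and for the 3 other tested genes of the family, in hippocampus (upper point of each pair) and cortex (lower point), with 95% intervals from limma. All points are open because none had an adjusted p under 0.05; Gabra2 lies to the left of 0 and Gabrg1 to the right in both tissues.

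Gabra2 was the 1 subunit of the 7 whose exposed arrays lay below both control arrays in both tissues; 4.17% of all probe sets were lower in this way. The labels do not say whether cortex and hippocampus arrays of 1 number came from the same mouse, so the tissues are not taken as separate evidence. Whether exposure acted differently in hippocampus and cortex was tested as the difference between the differences, which is also the change of the tissue difference with exposure. Limma called 0 of 7 subunits and 0% of 14804 probe sets, of which 511 (3.45%) had an unadjusted p under 0.05. For Gabra2 the exposure difference was -0.625 in hippocampus, against -0.55 in cortex (difference -0.075, SE 0.40, 95% interval -0.94 to 0.79). Gabra3 had the widest gap with all arrays in the fit, with an exposure difference of 0.30 in hippocampus, against -0.545 in cortex (difference 0.845, SE 0.43, 95% interval -0.10 to 1.79, unadjusted p = 0.0754, adjusted p = 0.998, limma). With single arrays left out this value ranged from 0.41 without Ctx Ctrl 1 to 1.28 without Ctx Ctrl 6. The other 5 had differences from -0.17 for Gabrb1 to 0.415 for Gabrb2.

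Of the other subunits of the family on a list of 12, 9 were in the value table and 3 passed the filter: Gabrg1, Gabrg3 and Gabrr2. Gabra6, Gabre, Gabrp, Gabrq, Gabrr1 and Gabrr3 had means from 2.524 to 3.721, under the limit of 3.937. The remaining 3 were not analysed here. Gabrg1 encodes the gamma1 subunit, which gives receptors a weak response to classical benzodiazepines. It measured 10.16 and 9.72 in exposed hippocampus, against 9.16 and 9.07 in control hippocampus. In cortex it measured 10.24 and 9.74 in exposed mice, against 9.0 and 8.76 in control mice. In each tissue both exposed arrays lay above both control arrays, which held for 4.17% of probe sets. All 4 exposed arrays also lay above all 4 control arrays, and the share of probe sets with that pattern was not counted. The difference was 0.825 in hippocampus (SE 0.27, 95% interval 0.23 to 1.42, unadjusted p = 0.0105, adjusted p = 0.777, limma) and 1.11 in cortex (SE 0.27, 0.52 to 1.70, unadjusted p = 0.00156, adjusted p = 0.74, limma), and it passed in neither.

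In RefSeq's GRCm38.p6 annotation Gabrg1, Gabra2, Gabra4 and Gabrb1 stand in this order on chromosome 5, with 1 other protein-coding gene, Cox7b2, among them. Their exposure differences, none of which passed, were 0.825 for Gabrg1, -0.625 for Gabra2, 0.425 for Gabra4 and 0.065 for Gabrb1 in hippocampus. In cortex they were 1.11 for Gabrg1, -0.55 for Gabra2, 0.05 for Gabra4 and 0.235 for Gabrb1. Between tissues, Gabra2 and Gabrb1 were called higher in hippocampus in both arms, and Gabra4 and Gabrg1 were not called. Gabrg1 differed between hippocampus and cortex by -0.05 in exposed mice (SE 0.27) and by 0.235 in control mice (SE 0.27).

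Gabrg3, for the gamma3 subunit, measured 9.79 and 10.10 in exposed hippocampus, against 9.50 and 9.45 in control hippocampus (difference 0.47, SE 0.27, adjusted p = 0.899, limma). The cortex arrays read 10.43 and 11.04 in exposed mice, against 10.44 and 10.61 in control mice (0.21, SE 0.27, adjusted p = 0.931, limma). Its arms did not overlap in hippocampus and overlapped in cortex. Gabrg3 was lower in hippocampus than in cortex by 0.79 in exposed mice (log2 difference -0.79, SE 0.27, adjusted p = 0.0693, limma) and was called in control mice (-1.05, SE 0.27, adjusted p = 0.0177, limma). The call in control mice was lost without Ctx Ctrl 1 (-1.135, adjusted p = 0.0733), Ctx Ctrl 6 (-0.965, 0.121) or Hip Ctrl 6 (-1.025, 0.0641), and without both arrays high in Ttr (-0.99, 0.18).

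Genes that assemble, traffic and anchor GABA-A receptors had 24 tested members, and exposure called 0 in hippocampus and 0 in cortex. In hippocampus 11 were higher and 12 lower (median -0.003), and in cortex 14 were higher and 9 lower (median 0.035). The hippocampal members with the smallest p were Plcl2, Hap1, Nlgn2 and Lhfpl3. Hap1, which encodes an adaptor for receptor recycling, measured 8.58 and 8.37 in exposed hippocampus, against 9.06 and 9.69 in control hippocampus (-0.90, SE 0.28, adjusted p = 0.769, limma). Plcl2, for a phospholipase C-like protein, differed by 0.815 (SE 0.25) and Lhfpl3 by 0.60 (SE 0.25). Nlgn2, the adhesion molecule of inhibitory synapses, measured 11.19 and 12.02 in exposed hippocampus, against 10.93 and 10.86 in control hippocampus (0.71, SE 0.28). In cortex Trak1, for a kinesin adaptor, differed by -0.575 (SE 0.25, adjusted p = 0.801).

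Between the tissues the same list held 4 genes higher and 2 lower in hippocampus in exposed mice, and 5 higher and 1 lower in control mice. These are 6 of 24 in each arm, beside 14.5% of all probe sets in exposed mice and 17.7% in control mice. Mdga1, which encodes a suppressor of neuroligin-2 binding, measured 6.43 and 7.05 in exposed hippocampus, against 4.60 and 4.56 in exposed cortex (2.16, SE 0.36, adjusted p = 0.00206, limma). In control mice it measured 6.98 and 7.07 in hippocampus, against 4.75 and 3.72 in cortex (2.79, SE 0.36, adjusted p = 0.000267, limma). Its cortex signals lay near the filter limit of 3.937, and 3.72 lay below it. Shisa7, for an auxiliary subunit of the receptor, was higher in hippocampus by 1.04 in exposed mice (adjusted p = 0.0249) and by 1.215 in control mice (adjusted p = 0.00951). Iqsec3, for a gephyrin-binding protein, was higher by 0.86 and 0.85, and Plcl1 by 1.135 and 1.31, in exposed and in control mice, and all of these passed. Hap1 was called higher in control mice (1.75, adjusted p = 0.0011) and had 0.84 in exposed mice (adjusted p = 0.0662). Of the lower calls, Plcl2 differed by -1.10 in exposed mice (adjusted p = 0.0112) and by -1.755 in control mice (adjusted p = 0.000463). Gabarapl2, of the family of GABARAP trafficking proteins, was called lower in exposed mice (-0.945, adjusted p = 0.0281) and had -0.765 in control mice (adjusted p = 0.0587).

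GABA synthesis, breakdown and transport had 7 tested genes, of which exposure called 0 in either tissue, with 5 higher in hippocampus (median 0.225) and 3 higher in cortex (median -0.08). Gad1, for the main GABA-synthesizing enzyme, measured 12.53 and 12.65 in exposed hippocampus, against 12.19 and 11.89 in control hippocampus (0.55, SE 0.23, adjusted p = 0.841, limma). The 2 exposed arrays lay above both controls. Abat, for the GABA-degrading transaminase, differed by 0.47 in cortex (SE 0.21, adjusted p = 0.801, limma). For GABA-B receptor genes, which encode the metabotropic GABA receptor and its auxiliary proteins, 0 of 4 were called in either tissue, with 2 higher and 2 lower in hippocampus (median 0.035) and all 4 lower in cortex (median -0.182).

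**Figure D4:**
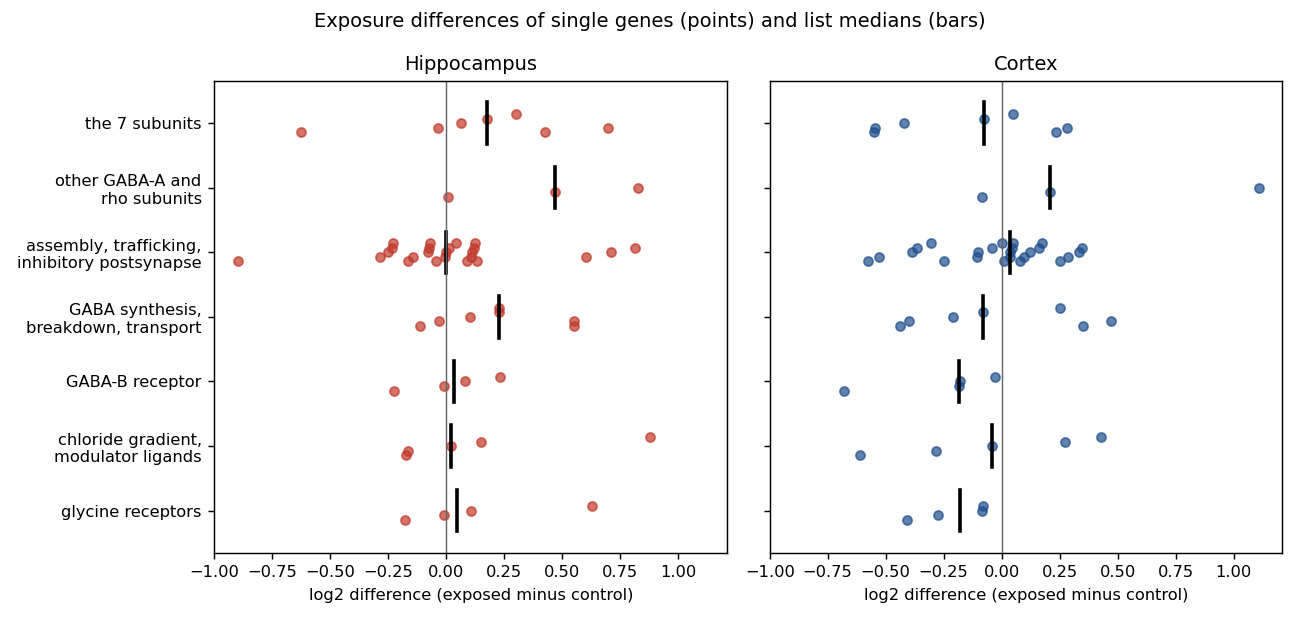
Log2 difference of exposed minus control mice (horizontal axes) for each tested gene (points) of the 7 subunits and of 6 lists of related genes, in hippocampus (left) and cortex (right); bars are list medians. Points of every list but the hippocampal gamma and rho subunits and the cortical GABA-B and glycine receptors lie on both sides of 0, and none passed the adjusted threshold.

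The genes whose log2 signals followed each subunit most closely over all 8 arrays were found by Pearson's r among tested probe sets, as a description. The arrays share 2 tissues, so a high r for a tissue-separated subunit mainly repeats that separation. Gabra5 was most like St18 (r = 0.998) and Prox1 (0.997), the transcription factor of dentate granule neurons. Gabrb1 was most like Galnt17 (0.997) and Neurod6 (0.996), a factor of pyramidal neurons, and Gabra2 was most like Baiap2 (0.992) and Rc3h1 (0.987). On the cortical side, Gabra3 was most like Foxp2 (0.993), a factor of deep-layer neurons, and Btbd10 (0.989), and Gabrd was most like R3hdm1 and Pigz (0.995 each). Gabrb2 was most like Fbxo9 (0.979) and Nptn (0.968). Gabra4, with no called tissue difference, had the lowest likeness, to Ikzf1 (0.935) and Trim13 (0.927).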

How the data were processed

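Total RNA of 8 tissue samples was hybridised to 1-colour Affymetrix arrays. Per the labels' protocols, samples had an RNA integrity number above 7.0, and 250 ng went into GeneChip WT amplification and labelling. The authors deposited 1 normalized log2 value per probe set and array, and RMA is named in the submitters' processing notes. Its version, summary level and log base are not stated there. The log base was read from the range of values, 1.59 to 19.93, and from what RMA usually writes. Scanner files were not used, so no detection call was made. GEO's platform annotation gave 1 gene symbol for 19572 of 22206 probe sets and none for 2634, and all 19572 were found in RefSeq's GRCm38.p6 table by Entrez identifier.

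The lowest 33.3% of probe sets by mean signal (under 3.937) were left out. In R 4.3.3, limma 3.58.1 (lmFit, then eBayes with trend) fitted a mean for each of the 4 groups, with 4 residual degrees of freedom and 7.918 from the prior. P-values were two-sided and adjusted by Benjamini-Hochberg over 14804 probe sets within a comparison, at a threshold of 0.05. The procedure was run on simulated data with planted changes and noise independent between arrays. What it had to meet was a median estimate near the planted change, so it does not vouch for calls from 2 arrays a group. Intervals are 95% intervals of the moderated model, and their precision is limited by the number of arrays. The 2 arrays of each group were not identical (Pearson's r between 0.9867 and 0.9915). Besides the 7 subunits, the text could name up to 4 genes per list and tissue with the smallest p for exposure, any list member past the threshold, and the 2 genes most like each subunit. The subunits, lists and tests were chosen with earlier results of these data known. Alternatives varied the filter, the normalization, the variance trend and the groups fitted, left out single arrays or both arrays high in Ttr, or added a replicate block.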

Additional observations from a re-analysis of the deposited data

How the results depend on the processing

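With 2 arrays a group, the calls of Gabra3, Gabra5, Gabrb1 and Gabrd between tissues held in both arms under all 16 alternatives, and those of Gabra2 and Gabrb2 did not, as given above. No subunit was called for exposure under any, and the lowest adjusted p there was 0.503. Where a group was left with 1 array, that array was assumed to vary like the others. Over 9 subunits, Gabrg1 and Gabrg3 included, 671 of 711 values kept direction and side of the threshold. No detection value was available, so low signal limits Gabrd in hippocampus.

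The probe sets called for exposure in cortex numbered 1, against 0 with quantile normalization or without the trend, 2 with only the groups compared, 3 without the arrays high in Ttr, and 0 to 2 with single arrays left out. In hippocampus they numbered 1, against 0 with quantile normalization, without the trend, with only the groups compared or without the arrays high in Ttr, and 0 to 56 with single arrays left out (56 without Hip Ctrl 6). For the difference between tissues they numbered 0, against 0 to 30 with single arrays left out (30 without Hip Ctrl 6). Between tissues they numbered 2143 in exposed mice (1074 to 2440 with single arrays left out) and 2620 in control mice (1289 to 2532), or 1155 in control mice without the arrays high in Ttr. In exposed mice they numbered 1074 and 1188 without Ctx CLO50 3 and 6, and 1382 and 1099 without Hip CLO50 3 and 6. In control mice they numbered 1289 and 1300 without Ctx Ctrl 1 and 6.

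Arrays of 1 arm and number were also set as a replicate block. Deviations from the group means correlated between the tissues at 0.276 in exposed and -0.001 in control mice, and the correlation fitted for the block was 0.19. With 2 arrays a group these values cannot decide whether the numbers are pairs. The main fit took no pairs, and whether the numbers mark the same mouse is not known. With the replicate block, 2 probe sets were called for exposure in cortex and 3 for the difference between tissues, and Gabrg3 was called between tissues in exposed mice (-0.79, adjusted p = 0.0342). It changed no other call on a subunit. It was also called there with quantile normalization (-0.9203, 0.0417) and with median centring (-0.93, 0.0398).

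Reversals were of small uncalled differences with single arrays left out, given here as ranges. For exposure in hippocampus they were Gabra5 (-0.195 to 0.125), Gabrb1 (-0.14 to 0.27) and Gabrd (-0.275 to 0.625). Without both arrays high in Ttr, Gabra5 was 0.09 and Gabrb1 -0.055. In cortex they were Gabra4 (-0.145 to 0.245), Gabrb2 (-0.035 to 0.595), Gabrd (-0.215 to 0.065) and Gabrg3 (-0.095 to 0.515). For the difference between tissues in exposure they were Gabra2 (-0.355 to 0.205), Gabrb1 (-0.375 to 0.035), Gabrd (-0.2 to 0.7) and Gabrg3 (-0.045 to 0.565). Between tissues they were Gabrg1 in exposed mice (-0.3 to 0.2) and Gabra4 in control mice (-0.195 to 0.115). The cause of these changes was not tested.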

Other observations

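Of 47 tested genes next to the 7 subunits in function, 9 were called between the tissues in exposed mice and 10 in control mice, beside 14.5% and 17.7% of all probe sets, and no test of the difference in share was run. Slc12a5, which encodes the chloride exporter KCC2 that keeps neuronal chloride low, fell in hippocampus against cortex in both arms. It measured 11.51 and 11.69 in exposed hippocampus, against 13.00 and 12.93 in exposed cortex (log2 difference -1.365, SE 0.26, adjusted p = 0.00407, limma). In control mice it measured 11.81 and 11.09 in hippocampus, against 12.98 and 13.03 in cortex (-1.555, SE 0.26, adjusted p = 0.00133, limma). Of the 5 tested genes of the chloride gradient and of modulator ligands, Slc12a5 was the 1 called, and exposure called 0 in either tissue (medians 0.02 in hippocampus and -0.04 in cortex).

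Glycine receptors are inhibitory chloride channels of the same family. Of 4 tested genes, Glra3 and Glrb fell in hippocampus against cortex in both arms, beside 5.22% of all probe sets called lower in exposed mice and 7.63% in control mice. Glra3 differed by -1.315 in exposed mice (SE 0.31, adjusted p = 0.0156, limma) and by -2.22 in control mice (SE 0.31, adjusted p = 0.00049, limma). Glrb, for the beta subunit that binds gephyrin, differed by -0.835 in exposed mice (adjusted p = 0.012) and by -0.91 in control mice (adjusted p = 0.00615). Exposure called 0 of 4 in either tissue. The hippocampal member with the smallest p was Glra3, with 7.57 and 7.30 in exposed mice, against 6.57 and 7.04 in control mice (0.63, SE 0.31, adjusted p = 0.859, limma). Both exposed arrays lay above both control arrays.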
